A study of Mus musculus with 2 samples.

Results

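The cadherins and protocadherins are described here in single-nucleus RNA sequencing of aged mouse hippocampus. Members were taken by gene symbol, as every gene whose symbol starts with Pcdh, or with Cdh and a digit, in any of 9 cell type tables. This gave 36 genes of 10596 listed in all, of which 10 belong to the clustered protocadherins (Pcdha, Pcdhb and Pcdhg) and 26 do not. The GWI group, a model of Gulf War Illness, consisted of male mice that received pyridostigmine bromide at 0.7 mg/kg and permethrin at 200 mg/kg by intraperitoneal injection, daily for 10 days from 10 weeks of age. The Control group was male mice that received vehicle on the same schedule. The label of the authors' comparison, GWI_PBS_vs_Ctrl_PBS, names PBS for both groups, while the treatment labels read Vehicle for Control and GW chemicals for GWI. All mice were aged to 19 months, and the hippocampi of 3 mice were pooled into 1 library per group. The series description gives the strain of all mice as C57BL/6J, while the genotype labels read C57/BL7 for GWI and C57/BL6 for Control.

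Cadherins are transmembrane proteins that bind their own kind or close relatives on the neighbouring cell through calcium-dependent extracellular repeats. Classical cadherins, of type I and type II, hold the actin cytoskeleton through catenins on the inside of the cell, and in the hippocampus their combinations mark layers, subfields and synapses. Protocadherins have more weakly adhesive repeats and other intracellular partners. The clustered genes lie side by side in 3 arrays, and each neuron uses its own set of them as an identity code for telling its own branches from those of other neurons.

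The authors deposited, for each gene of a table, a log2 fold change, GWI over Control, and the percentage of nuclei in which the gene was detected in each library. All values below are from the authors' deposited tables. Each group is 1 library, so nothing measures the spread between replicates and no test was made. The numbers of nuclei and of molecules behind these values were not analysed here, so no interval is given. The first detection column was read as GWI, because the comparison label of the files names GWI first. A gene had a row in a table only where it was detected in at least 10% of nuclei of 1 library and differed by at least 0.05 on the log2 scale. Of 145 listed values of members, 14 had a row through 1 library alone, with detection under 10% in the other, and 13 of these were higher in the library that gave them their row. Such a value had to differ and is named as such below. A member with no row is neither absent nor equal between libraries, and counts below are of listed members, never of all 36. Differences are described by a size rule, 0.25 or more on the log2 scale in either direction. Counts of members past it are set beside the share of all genes of the same table past it, as the background. All tables come from the same pair of libraries, so that agreement between tables is not replication.

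Cell types are as the authors annotated them, and each table listed markers of its own type. Slc17a7, the vesicular glutamate transporter, was detected in 67.6% of GWI and 60.5% of Control nuclei of the excitatory neuron table. Slc32a1, the vesicular GABA transporter, was detected in 33.2% of GWI and 26.9% of Control nuclei of the inhibitory neuron table. In the table named Other, the excitatory genes Camk2a and Grin2b were each detected in 100% of nuclei of both libraries. In inhibitory neurons Camk2a was also in 80.3% of GWI and 82.6% of Control nuclei, and Grin2b in 97.2% and 97.1%. Markers of other types had rows in the Other table too, with Mbp at 67.3% and 72.8% and Gad2 at 17.7% and 23.7%. There 0 of 4 markers of ependymal cells and choroid plexus and 0 of 4 of fibroblasts had a row. The log2 fold changes spread more widely in endothelial cells and pericytes, with a standard deviation across all genes of 0.80 and 0.96, against 0.21 to 0.38 in the other 7 tables.

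**Figure D1:**
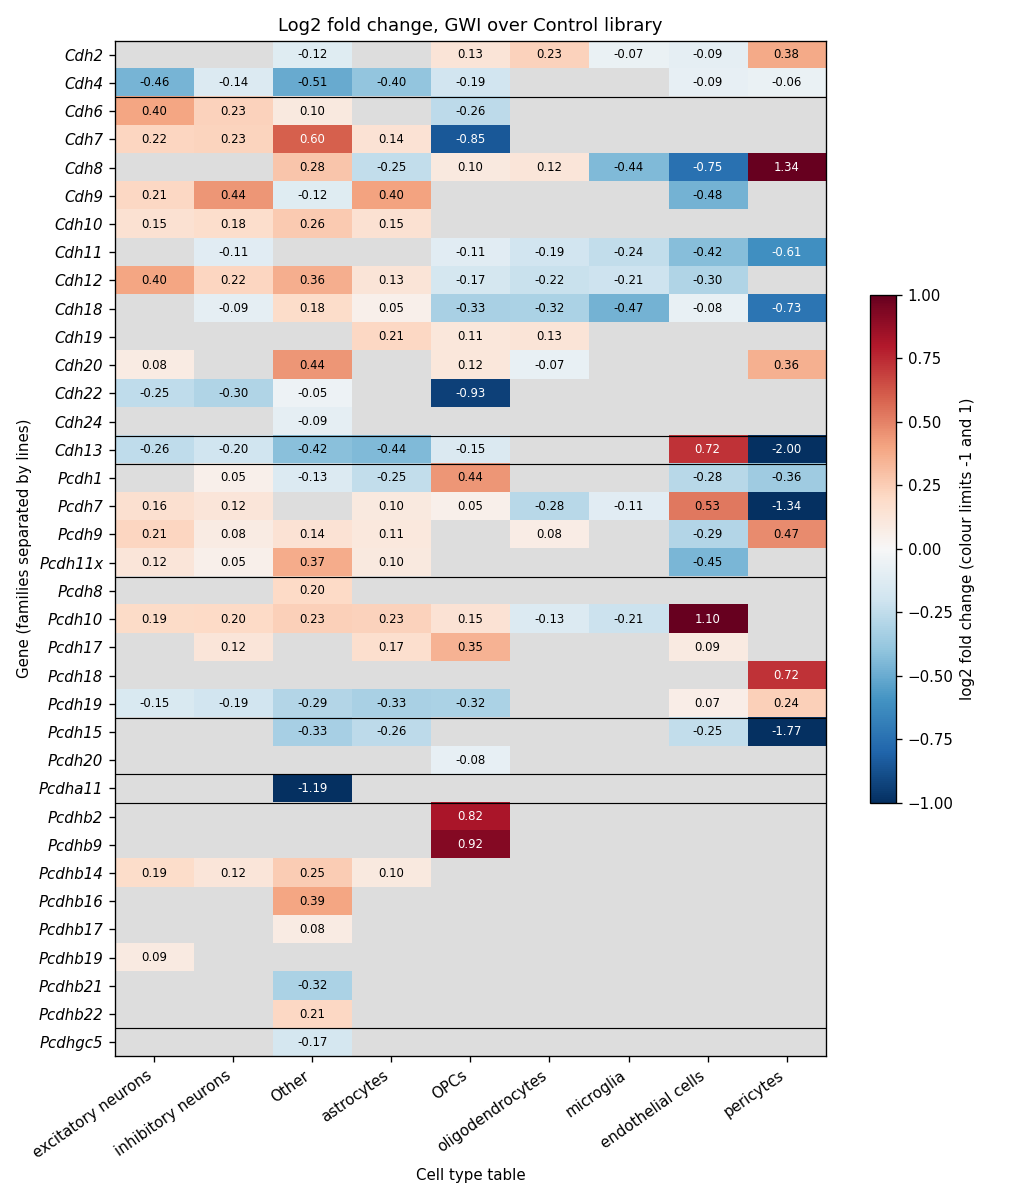
Deposited log2 fold change, GWI over Control, for each of the 36 members (rows, grouped by family) in each of the 9 cell type tables (columns). Red is higher and blue lower in GWI, grey marks a member with no row in that table, and colours stop at -1 and 1. Cdh4 and Cdh11 are blue in every table that lists them, and Cdh12 is red in 4 tables and blue in 4.

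The 26 unclustered members made up most of what was measurable. GENCODE M21, an annotation of GRCm38, holds 35 genes that meet the rule outside the clusters, and 26 of these had a row in at least 1 table. It holds 57 clustered symbols, of which 10 had a row. No member was listed in all 9 tables, and Cdh12, Cdh18, Pcdh7 and Pcdh10 were listed in 8. Listed clustered members also had lower median detection, although the ranges of the classes overlapped. Over the 132 gene and table combinations of unclustered members, detection ran from 6.4% to 100% with a median of 36.5% in GWI, and from 4.8% to 100% with a median of 34.55% in Control. Over the 13 combinations of clustered members it ran from 6.7% to 27.2% with a median of 12.2% in GWI, and from 5.0% to 20.6% with a median of 11.1% in Control. These medians cover different tables, as no clustered member had a row in oligodendrocytes, microglia, endothelial cells or pericytes. Unclustered members had GWI medians of 12.3% in microglia and 12.8% in pericytes. Within the Other table the GWI medians were 12.2% for clustered and 74.95% for unclustered members.

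In excitatory neurons, most listed members were higher in the GWI library, with Cdh6 and Cdh12 the highest and Cdh4, Cdh13 and Cdh22 the lowest. Of 14 unclustered members listed there, 10 had a log2 fold change above 0, against 52.3% of all genes of the table. The 2 members higher by at least 0.25 stand against a background of 10.1%, and the 3 lower by at least 0.25 against a background of 8.75%. The median log2 fold change of the 14 was 0.16, and that of all 6013 genes of the table was 0.06. The mean of the 14 was 0.07, and their median was 0.05 after each gene's median in the other tables was subtracted. Values also spread more among the members, with a standard deviation of 0.26 across genes against 0.21 for all genes. Markers of other cell types differed in the same table. Of 8 interneuron markers 4 were listed and 3 were below 0, with Gad2 at -0.53, held by 29.5% of GWI and 38.9% of Control nuclei, and of 6 oligodendrocyte markers 4 were listed and 3 were below 0. Summed detection, which may pass 100 as a sum over genes, was 96.3% in GWI and 107.4% in Control for the interneuron list, and 119.2% and 123.1% for the oligodendrocyte list. Other markers were above 0. The interneuron marker Lamp5 was at 0.23, and the 1 listed astrocyte marker, Slc1a2, at 0.07. Of 6 microglia markers 2 were listed, both above 0, with 29.0% in GWI and 23.4% in Control. The 1 listed marker of oligodendrocyte precursor cells, Ptprz1, was at -0.20. The part of all these markers in the values of the members was not tested.

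The type II classical cadherins gave the highest values in excitatory neurons. Of 7 listed, 6 were above 0, with a median of 0.21. The 4 that lie on chromosome 15 were all above 0 with a median of 0.30, while the 218 listed genes of that chromosome had a median of -0.06. The listed type II genes of that chromosome had medians of 0.22 in inhibitory neurons, 0.18 in the Other table and 0.14 in astrocytes. All 3 listed in oligodendrocyte precursor cells (median -0.26) and all 3 in endothelial cells (-0.30) were below 0. In oligodendrocytes Cdh12 and Cdh18 alone were listed, at -0.22 and -0.32, and in microglia the same 2, at -0.21 and -0.47. The 1 listed in pericytes was at -0.73. Of all listed genes of chromosome 15, 49.1% were above 0 in oligodendrocyte precursor cells and 47.1% in endothelial cells. The share was 37.5% in oligodendrocytes, 40.4% in microglia and 36.6% in pericytes. In GRCm38 coordinates, Cdh6, Cdh9, Cdh10, Cdh12 and Cdh18 lie in 10.4 Mb of chromosome 15, between positions 13028701 and 23474418. Of these, Cdh18 had no row in excitatory neurons. Cdh6 covers 13028701 to 13173675 on the minus strand, and Cdh12 covers 20449265 to 21589533 on the plus strand. Both are protein-coding genes, and an exon of Cdh12 overlaps that of 1 other gene on the same strand, Gm49685, so reads there could belong to either.

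The stretch of 250 bases before the RefSeq start of 4 members, in GRCm38.p6, shows how their promoters differ in base composition, with every CG dinucleotide in capitals. Cdh6 and Cdh12 are shown as the highest members in excitatory neurons, Pcdh10 as a protocadherin that was also higher there, and Cdh22 as a type II cadherin that was lower. The windows are chr15:13173676-13173925 on the minus strand for Cdh6, chr15:21111202-21111451 on the plus strand for Cdh12, chr3:45378148-45378397 on the plus strand for Pcdh10 and chr2:165234738-165234987 on the minus strand for Cdh22.
Cdh6: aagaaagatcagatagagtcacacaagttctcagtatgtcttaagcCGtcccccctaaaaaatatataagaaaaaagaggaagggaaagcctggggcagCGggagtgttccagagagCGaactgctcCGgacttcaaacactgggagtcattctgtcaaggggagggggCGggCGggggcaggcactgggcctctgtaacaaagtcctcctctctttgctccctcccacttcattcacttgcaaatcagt
Cdh12: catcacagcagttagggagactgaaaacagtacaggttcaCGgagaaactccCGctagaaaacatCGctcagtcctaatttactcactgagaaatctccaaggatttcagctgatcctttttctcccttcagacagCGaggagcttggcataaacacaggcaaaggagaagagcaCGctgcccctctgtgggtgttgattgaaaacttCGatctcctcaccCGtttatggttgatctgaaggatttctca
Pcdh10: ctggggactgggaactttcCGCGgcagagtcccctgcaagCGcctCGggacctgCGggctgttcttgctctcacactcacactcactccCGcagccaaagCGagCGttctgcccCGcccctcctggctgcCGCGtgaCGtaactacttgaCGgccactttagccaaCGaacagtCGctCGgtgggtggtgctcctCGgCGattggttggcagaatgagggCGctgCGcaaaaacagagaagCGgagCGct
Cdh22: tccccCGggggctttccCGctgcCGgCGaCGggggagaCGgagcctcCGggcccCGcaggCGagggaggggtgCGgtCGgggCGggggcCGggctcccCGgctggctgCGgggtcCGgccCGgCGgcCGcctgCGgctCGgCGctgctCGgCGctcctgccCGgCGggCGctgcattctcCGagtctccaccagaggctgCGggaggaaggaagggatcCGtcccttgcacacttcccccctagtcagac
The Cdh6 window holds 6 CG dinucleotides and that of Cdh12 holds 7, counts reached by 50.4% and 46.3% of all 32851 windows of the same length in the RefSeq table. The Pcdh10 window holds 22, reached by 14.8% of windows, and that of Cdh22 holds 30, reached by 5.94%. The other type II cadherins of chromosome 15 had 2 (Cdh10), 6 (Cdh9) and 8 (Cdh18). The median over all windows was 6, so the windows of Cdh6 and Cdh12 were near the median and that of Pcdh10 was above it. The windows of Cdh10, Cdh12 and Cdh18 lie wholly inside the gene as GENCODE draws it. Those of Cdh9 and Cdh22 lie partly inside. In all, 19 unclustered members matched a window.

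Cdh12, a type II cadherin of neurons, was detected in 82.9% of GWI and 77.6% of Control nuclei of excitatory neurons, with a log2 fold change of 0.40. It was in 85.0% of GWI and 80.3% of Control nuclei of the Other table, with 0.36. In inhibitory neurons the shares were 56.4% in GWI and 55.8% in Control, with 0.22, and in astrocytes 51.4% and 48.8%, with 0.13. The gene was lower in the tables where few nuclei held it. It was at -0.17 in OPCs (oligodendrocyte precursor cells), with 26.3% of GWI and 28.2% of Control nuclei, and at -0.22 in oligodendrocytes, with 10.4% and 11.8%. It was at -0.21 in microglia, with 12.3% and 11.8%, and at -0.30 in endothelial cells, with 17.5% and 23.2%.

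Cdh6, a type II cadherin, was detected in 45.5% of GWI and 36.7% of Control nuclei of excitatory neurons, the widest gap in detection among the members of that table, with a log2 fold change of 0.40. It was at 0.23 in inhibitory neurons, with 20.2% of GWI and 18.9% of Control nuclei, and at 0.10 in the Other table, with 67.1% and 59.4%. In OPCs it was at -0.26 although detection was 45.6% in GWI and 45% in Control, so that the log2 ratio of detection shares was 0.02.

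Cdh9, a type II cadherin known from mouse work to guide synapses between dentate granule cells and CA3 neurons, was highest in inhibitory neurons. It was detected there in 36.7% of GWI and 35.7% of Control nuclei, with a log2 fold change of 0.44. It was at 0.40 in astrocytes, with 31.5% of GWI and 27.8% of Control nuclei, and at 0.21 in excitatory neurons, with 47.2% and 44.9%. It was at -0.12 in the Other table, with 50.4% and 52.6%, and at -0.48 in endothelial cells, with 8.7% and 10.5% and a row through Control alone. Its gap in detection was the narrowest in inhibitory neurons, where its log2 fold change was the highest.

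Cdh10, a type II cadherin, was higher in each of the 4 tables that listed it, with log2 fold changes of 0.15 in excitatory neurons, 0.18 in inhibitory neurons, 0.15 in astrocytes and 0.26 in the Other table. Its detection was 83.4% in GWI and 80.2% in Control nuclei of excitatory neurons, and 92.8% and 91.0% in the Other table.

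Cdh7 was higher in 4 tables and lower in OPCs. It was detected in 79.2% of GWI and 70.6% of Control nuclei of the Other table, with a log2 fold change of 0.60, the highest of all members there. It was at 0.22 in excitatory neurons, with 46.9% of GWI and 39.8% of Control nuclei, at 0.23 in inhibitory neurons and at 0.14 in astrocytes. In OPCs it was at -0.85, with 7.0% of GWI and 10.9% of Control nuclei, so that it had a row through Control alone. Cdh20, which lies with Cdh7 and Cdh19 in 6.21 Mb of chromosome 1, was at 0.44 in the Other table, with 72.3% of GWI and 61.0% of Control nuclei, at 0.08 in excitatory neurons and at 0.12 in OPCs, where 79.1% and 73.5% of nuclei held it. It was at -0.07 in oligodendrocytes, with 68.4% and 69.4%, and at 0.36 in pericytes, with 11.5% and 9.5% and a row through GWI alone. Cdh19, known from Schwann cell precursors, was listed in 3 tables and above 0 in each, at 0.21 in astrocytes, 0.11 in OPCs and 0.13 in oligodendrocytes.

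**Figure D2:**
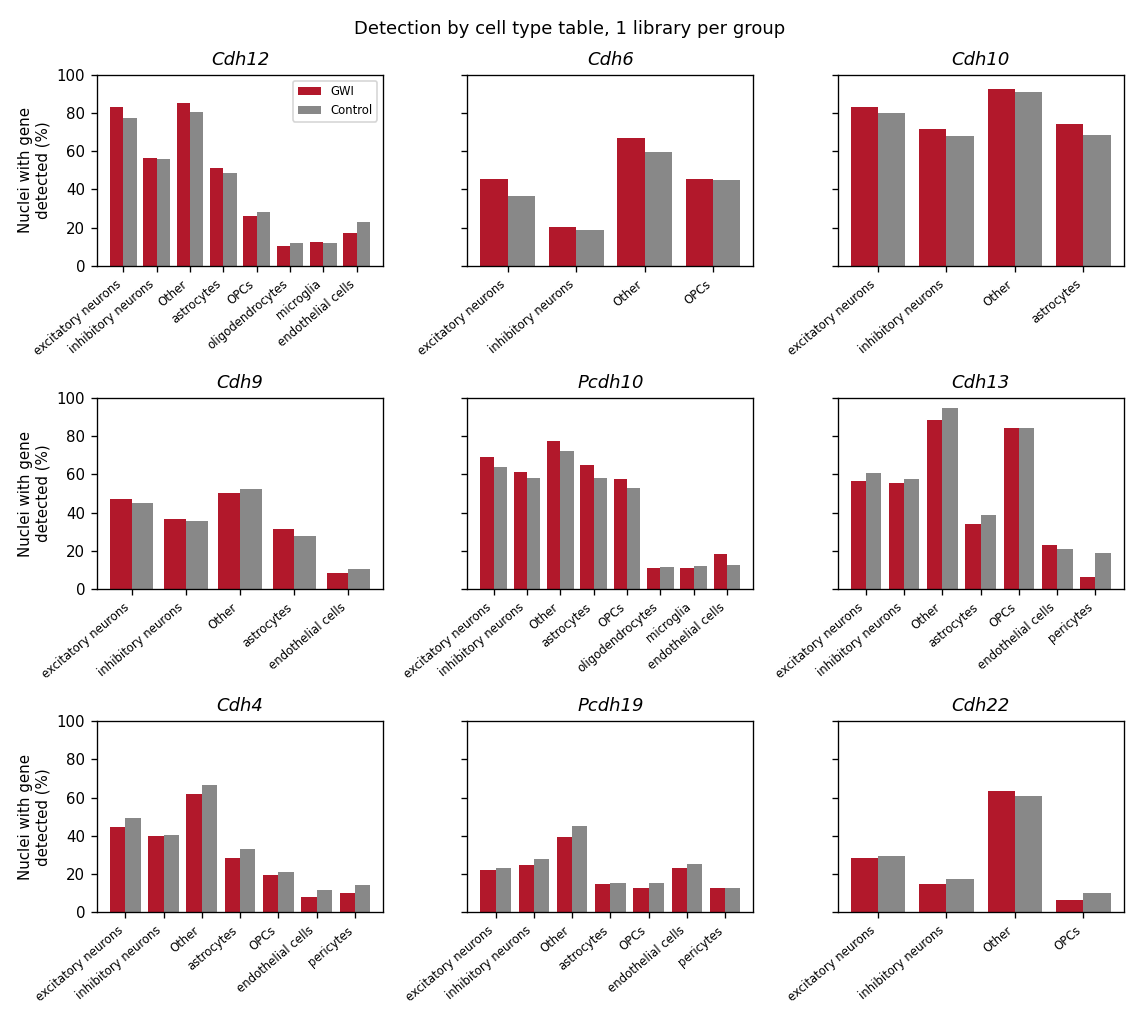
Percentage of nuclei in which each of 9 members was detected (vertical axis) in the GWI library (red, left bar) and the Control library (grey, right bar), for each cell type table that lists the gene. Each bar is 1 library, with no error bar. For Cdh6 in excitatory neurons the bars stand at 45.5% and 36.7%, and for Cdh13 in the Other table at 88.3% and 94.9%.

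Cdh11, Cdh18 and Cdh22, also of type II, were lower in most tables. Cdh11, known from mesenchymal and neural cells, was below 0 in all 6 tables that listed it, from -0.61 in pericytes, with 14.1% of GWI and 20.6% of Control nuclei, to -0.11 in inhibitory neurons, with 56.2% and 58.8%. Cdh22 was below 0 in all 4 of its tables, at -0.25 in excitatory neurons, -0.30 in inhibitory neurons, -0.05 in the Other table and -0.93 in OPCs, where 6.4% of GWI and 10.1% of Control nuclei held it and the row came through Control alone. Cdh18 was below 0 in 6 of 8 tables. Its log2 fold change was -0.33 in OPCs, with 60.1% of GWI and 69.3% of Control nuclei, and -0.32 in oligodendrocytes, with 14.2% and 17.9%. It was 0.18 in the Other table, with 95% and 93.8%, and 0.05 in astrocytes. In pericytes it was at -0.73, while detection went the other way, with 17.9% of GWI and 15.9% of Control nuclei. Cdh24 was listed in the Other table alone, at -0.09.

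Cdh8, a type II cadherin, went both ways. It was detected in 91.6% of GWI and 87.7% of Control nuclei of the Other table, with a log2 fold change of 0.28. It was at 0.10 in OPCs and 0.12 in oligodendrocytes. It was at -0.25 in astrocytes, just short of the size rule, and at -0.44 in microglia, where 11.1% of GWI and 11.5% of Control nuclei held it. In endothelial cells it was at -0.75 and in pericytes at 1.34, with 12.8% of GWI and 4.8% of Control nuclei and a row through GWI alone.

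Of the type I cadherins, Cdh4 (R-cadherin) was below 0 in all 7 tables that listed it. In excitatory neurons it was detected in 44.8% of GWI and 49.3% of Control nuclei, and its log2 fold change of -0.46 was the lowest of the members there. It was at -0.51 in the Other table, with 61.8% of GWI and 66.5% of Control nuclei, and at -0.40 in astrocytes, with 28.5% and 33.4%. It was at -0.14 in inhibitory neurons, with 39.7% and 40.7%, and at -0.19 in OPCs. In endothelial cells it was at -0.09, with a row through Control alone, and in pericytes at -0.06. Cdh4 covers 179442431 to 179899373 on the plus strand of chromosome 2. Cdh2 (N-cadherin), the main classical cadherin of synaptic and glial junctions, was higher in oligodendrocytes at 0.23, with 28.0% of GWI and 22.7% of Control nuclei. It was at 0.13 in OPCs, with 69.7% and 61.3%, and at 0.38 in pericytes, with 43.6% and 38.1%. It was at -0.12 in the Other table, -0.07 in microglia and -0.09 in endothelial cells, and it had no row in either neuron table or in astrocytes.

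Cdh13 (T-cadherin) is held to the membrane by a lipid anchor and has no tail for catenins. It was below 0 in 6 of the 7 tables that listed it. In excitatory neurons 56.7% of GWI and 60.8% of Control nuclei held it, with a log2 fold change of -0.26, and in inhibitory neurons 55.4% and 57.7%, with -0.20. It was at -0.42 in the Other table, with 88.3% of GWI and 94.9% of Control nuclei, and at -0.44 in astrocytes, with 34.3% and 38.9%. In OPCs detection was 84.5% in both libraries, with -0.15. The vascular tables stood at opposite ends, with 0.72 in endothelial cells and -2.0 in pericytes, where 6.4% of GWI and 19.0% of Control nuclei held it and the row came through Control alone. Cdh13 covers 118283733 to 119324921 on the plus strand of chromosome 8.

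Among the unclustered protocadherins, those of the delta-1 subfamily, which carry a longer set of extracellular repeats, were slightly higher in neurons. Pcdh9 was the most widely detected member of the neuron tables. It was in 98.7% of GWI and 99.0% of Control excitatory nuclei, with a log2 fold change of 0.21, and so was found in nearly every nucleus of both libraries. It was at 0.08 in inhibitory neurons, 0.14 in the Other table, 0.11 in astrocytes and 0.08 in oligodendrocytes. Pcdh7 was in 91.8% of GWI and 90.3% of Control excitatory nuclei, at 0.16, and at 0.12 in inhibitory neurons, 0.10 in astrocytes and 0.05 in OPCs, where 96.5% and 96.6% of nuclei held it. In oligodendrocytes Pcdh7 was at -0.28, with 24.2% and 27.5%. Pcdh11x, on the X chromosome, was at 0.37 in the Other table, with 49.2% of GWI and 47.6% of Control nuclei, at 0.12 in excitatory neurons, 0.05 in inhibitory neurons and 0.10 in astrocytes. In endothelial cells it was at -0.45, with 10.7% and 12.6%. Pcdh1 was at 0.44 in OPCs, with 14.7% of GWI and 10.5% of Control nuclei, at 0.05 in inhibitory neurons, -0.13 in the Other table and -0.25 in astrocytes, just short of the size rule.

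Of the delta-2 subfamily, some members of which bind the WAVE actin regulator, Pcdh10 and Pcdh17 were higher, and Pcdh19 lower, in most tables. Pcdh10 was detected in 68.9% of GWI and 63.9% of Control excitatory nuclei, with a log2 fold change of 0.19. It was at 0.20 in inhibitory neurons, with 61.5% and 58.0%, at 0.235 in the Other table, with 77.6% and 72.4%, and at 0.23 in astrocytes, with 65.1% and 58.2%. It was at 0.15 in OPCs, -0.13 in oligodendrocytes and -0.21 in microglia. Pcdh17 was at 0.35 in OPCs, with 69.4% of GWI and 60.1% of Control nuclei, at 0.17 in astrocytes and at 0.12 in inhibitory neurons. Pcdh19, whose human counterpart is a gene of X-linked epilepsy, was below 0 in the 5 tables of neurons, Other, astrocytes and OPCs. Its values there were -0.15 in excitatory neurons, -0.19 in inhibitory neurons, -0.29 in the Other table, -0.33 in astrocytes and -0.32 in OPCs. It was above 0 in the vascular tables, at 0.07 in endothelial cells and 0.24 in pericytes. The widest of its detection gaps was in the Other table, with 39.6% of GWI and 45% of Control nuclei. Pcdh8, a protocadherin induced by neuronal activity, was listed in the Other table alone, at 0.20, with 10.7% of GWI and 9.6% of Control nuclei and a row through GWI alone. Of the remaining protocadherins, Pcdh15, a tip-link protein of hair cells that is also a gene of the oligodendrocyte lineage, was below 0 in its 4 tables, at -0.26 in astrocytes and -0.33 in the Other table, and Pcdh20 was at -0.08 in OPCs.

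**Figure D3:**
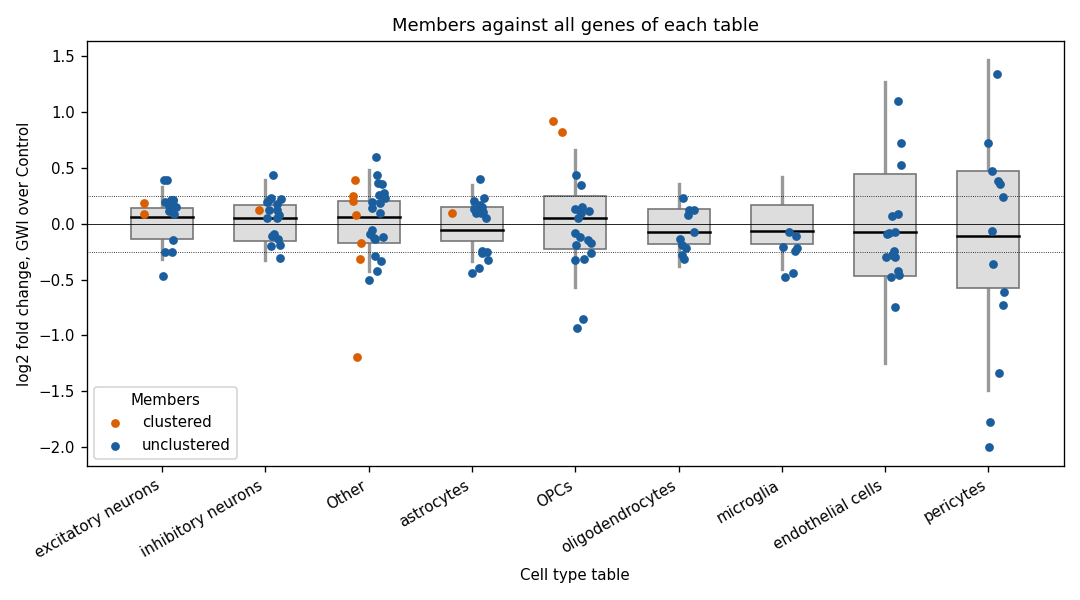
Log2 fold change, GWI over Control (vertical axis), of unclustered (blue) and clustered (orange) members in each cell type table. Grey boxes span the 25th to 75th percentiles of all genes of the table, grey lines the 5th to 95th, black bars the median, and dotted lines mark the size rule of 0.25. All 7 microglial members lie below 0, and the 2 clustered members of OPCs lie above 0.8.

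In inhibitory neurons the members differed less. Of 17 unclustered members, 11 were above 0, against 50.6% of all genes, with a median of 0.08 against 0.05. Cdh9 was the 1 member higher by at least 0.25, against a background of 14.9%, and Cdh22 the 1 lower, against a background of 10.8%. Of 8 interneuron markers all 6 listed were above 0, with a summed detection of 160.3% in GWI and 137.8% in Control, and of 7 excitatory markers 5 of 6 listed were below 0, with 325.3% and 330.8%. Their part in these values was not tested. Of 20 unclustered members of the Other table, 11 were above 0, against 53.1% of all genes, with 6 higher by at least 0.25 (background 19.4%) and 4 lower (background 15.5%). Its type II cadherins were higher by that rule in 5 of 10 cases and lower in 0. In astrocytes 11 of 17 unclustered members were above 0, against 48.6% of all genes, with a median of 0.10 against -0.06. Their mean was -0.01, on the other side of 0. The 1 higher by at least 0.25 was Cdh9 (background 12.1%), and the 4 lower were Cdh4, Cdh13, Pcdh15 and Pcdh19 (background 11.6%). Neuronal markers were detected in the astrocyte table too, with 7 of 15 listed and all 7 below 0. Their summed detection was 268.6% in GWI and 278.3% in Control. The part of neuronal RNA in the astrocyte values was not tested.

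In OPCs, 8 of 18 unclustered members were above 0, against 50.7% of all genes, with a median of -0.10 against 0.05. Among members detected in at least 25% of nuclei of 1 library the median was 0.05. There 2 were higher by at least 0.25 (background 25.1%) and 5 lower (background 22.6%), of which Cdh7 and Cdh22 had a row through Control alone. Of 15 neuronal markers 8 were listed in OPCs, 5 of them below 0, with a summed detection of 179.1% in GWI and 192.4% in Control. In oligodendrocytes 4 of 10 were above 0, against 44.5% of all genes, with 0 higher by at least 0.25 (background 11.5%) and Cdh18 and Pcdh7 lower (background 14.9%). Centred on the median of all genes of the table, these stood at -0.25 (just short of the rule) and -0.21, and Cdh2, at 0.30, was the 1 member past it. With members detected in at least 25% of nuclei of 1 library the median was 0.10, against -0.10 for all 10. Of 15 neuronal markers 4 were listed in oligodendrocytes, 3 of them below 0, with a summed detection of 91.6% in GWI and 99.7% in Control. The part of neuronal RNA in either table was not tested.

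In microglia all 7 listed members were below 0, where 46.8% of all genes of the table were above 0, and their median was -0.21 against -0.06. In all, 0 were higher by at least 0.25 (background 15.2%), and Cdh18 at -0.47 and Cdh8 at -0.44 were lower (background 16.5%). Cdh18 was held by 17.4% of GWI and 20.1% of Control microglial nuclei. The others were Cdh11 at -0.24, Cdh12 at -0.21, Pcdh10 at -0.21, Pcdh7 at -0.11 and Cdh2 at -0.07. Of these, Cdh12 and Cdh2 were detected in a larger share of GWI than of Control nuclei. The detection of the 7 ran from 10.9% to 28.7% in GWI and from 11.5% to 29.7% in Control, lower than that of each gene in the Other or OPC table. The 3 neuronal markers listed in microglia of 15, Camk2a, Grin2b and Rbfox3, were also below 0, from -0.25 to -0.22, with a summed detection of 74.0% in GWI and 78.4% in Control. All 5 listed of 6 microglia markers were above 0, with a median of 0.54 and a summed detection of 327.5% in GWI and 276.3% in Control. The 2 listed astrocyte markers were below 0, with 49.0% and 52.9%. Of 4 listed oligodendrocyte markers 3 were below 0, with 73.5% and 69.3%. The part of all these markers in the lower values of the members was not tested.

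In endothelial cells 5 of 16 unclustered members were above 0, against 48.4% of all genes, with 3 higher by at least 0.25 (background 35.4%) and 7 lower (background 37.5%). Pcdh10 was at 1.10, with 18.4% of GWI and 12.6% of Control nuclei, and Pcdh7 at 0.53, with 43.7% and 35.8%. All 5 listed type II cadherins were below 0, with a median of -0.42, and 4 of 6 listed neuronal markers of 15 were below 0 in the same table, with a summed detection of 121.4% in GWI and 143.0% in Control. Markers of other types were lower by more. All 4 listed of 6 mural markers were below 0, with a median of -0.73 and a summed detection of 87.4% in GWI and 134.7% in Control, and so were all 3 listed of 6 oligodendrocyte markers, with a median of -1.21 and 30.1% and 48.3%. The 3 listed of 6 endothelial markers were above 0, with 198.0% and 185.2%. Their part in these values was not tested. The junctional cadherin of endothelium, Cdh5, had no row there and is not analysed here. In pericytes 6 of 13 members were above 0, against 47.2% of all genes, with 5 higher by at least 0.25 (background 36.0%) and 6 lower (background 41.9%), close to the background in each direction. The lowest beside Cdh13 were Pcdh15 at -1.77, with 12.8% of GWI and 22.2% of Control nuclei, and Pcdh7 at -1.34, with 17.9% and 27.0%. Pcdh18 had a row in pericytes alone, at 0.72, with 26.9% and 22.2%. Pcdh9 was at 0.47 there, although its detection was 62.8% in GWI and 65.1% in Control, a log2 ratio of -0.05.

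Few of the clustered protocadherins had a row, which needs both the detection and the fold minimum. The alpha array has 14 genes in GENCODE M21 and the gamma array 22, and in each array every gene shares an exon on the same strand with another gene, because the variable first exons are joined to common last exons. A read from the 3′ end of such a transcript cannot be given to 1 gene by its position. Of these, Pcdha11 and Pcdhgc5 alone had a row, both in the Other table. Of the 22 beta genes, which have no common exons in their array, 2 share an exon with a neighbour and 8 had a row. The symbol Pcdha11 is carried by 2 gene identifiers in that annotation, so its row may stand for either.

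Of the 8 beta genes listed, 3 (Pcdhb2, Pcdhb9 and Pcdhb19) had a row through GWI alone and 1 (Pcdhb21) through Control alone, so no count of directions is drawn from them. Pcdhb14 was the 1 clustered member listed in more than 1 table, and it was higher in all 4. It was detected in 15.4% of GWI and 12.3% of Control nuclei of excitatory neurons, with a log2 fold change of 0.19. It was in 15.2% and 13.2% of inhibitory nuclei, with 0.12, and in 12.2% and 11.1% of astrocyte nuclei, with 0.10. It was held by 27.2% of GWI and 20.6% of Control nuclei of the Other table, with 0.25. Pcdhb19 was at 0.09 in excitatory neurons, with 10.2% of GWI and 8.8% of Control nuclei.

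In OPCs the listed clustered genes were Pcdhb9, at 0.92 with 11.5% of GWI and 5.5% of Control nuclei, and Pcdhb2, at 0.82 with 11.5% and 5.0%. Both reached the 10% detection limit in the GWI library alone, so they had a row only through the library where they were higher. The Other table listed 7 clustered members, with a median of 0.08, against 0.12 for the 20 unclustered members and 0.06 for all genes. Those below 0, Pcdha11, Pcdhb21 and Pcdhgc5, each had a row through 1 library alone. No count of directions is therefore drawn, and no difference between the classes is read from the median. Pcdhb16 was at 0.39, with 16.9% and 12.1%, and Pcdhb22 at 0.21, with 12.2% and 10.8%. Pcdhb17 was at 0.08, with 12.2% and 11%. Pcdhb21, which shares an exon with Pcdhb22, was at -0.32, with 9.5% and 12.9% and a row through Control alone. Pcdhgc5 was at -0.17 although 11% of GWI and 9.9% of Control nuclei held it, with a row through GWI alone. Pcdha11 was at -1.19, with 6.7% and 12.9% and a row through Control alone. With 1 library per group the difference between the classes was not tested.

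Gene length sets the unclustered members apart from most genes. Their median length was 155.64 kb, against 37.31 kb for the 10312 listed genes with an annotated length, and 18 of 26 were at least 100 kb long, against 21.4% of all. The median log2 fold change of long genes was below 0 in each of the 9 tables. In excitatory neurons the 1476 genes of at least 100 kb had a median log2 fold change of -0.11, with 30.6% above 0, and the 4366 shorter genes had 0.08. The 13 long unclustered members of that table had a median of 0.15, with 9 above 0. In inhibitory neurons long genes had a median of -0.11 and the 14 long members 0.07, and in astrocytes long genes had -0.12 and the 13 long members 0.10. In oligodendrocytes the medians were -0.13 for long genes and -0.13 for the 8 long members, and in microglia -0.12 and -0.23 for 6. They were -0.10 and -0.17 for 13 members in OPCs, and -0.10 and -0.25 for 13 in endothelial cells. In the Other table they were -0.09 and 0.12 for 16 members, and in pericytes -0.21 and -0.06 for 11.

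**Figure D4:**
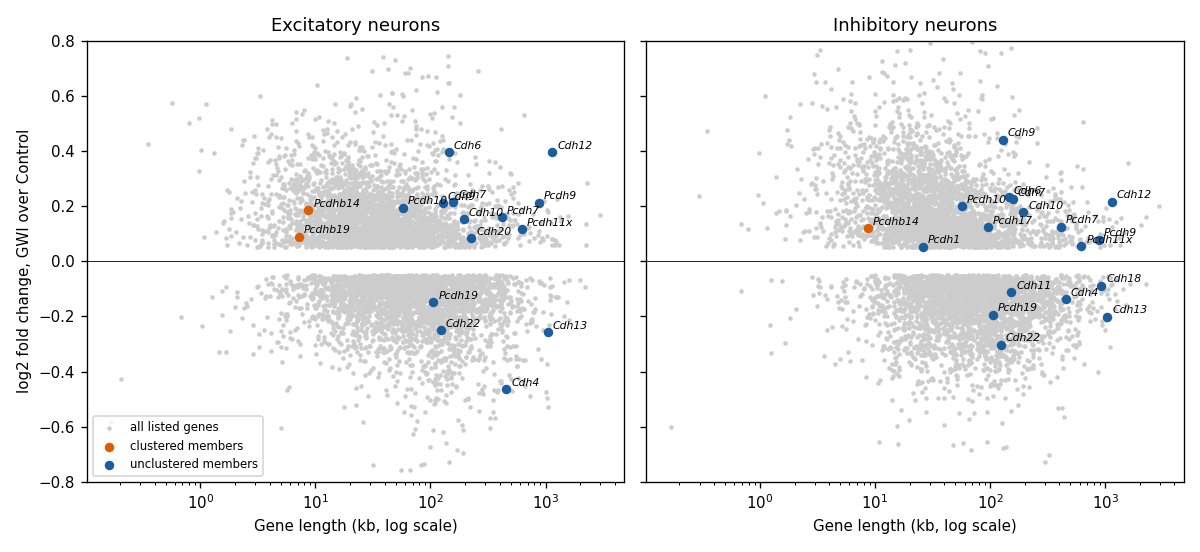
Log2 fold change, GWI over Control (vertical axis, cut at -0.8 and 0.8), against gene length in kb (log scale) for all listed genes (grey), unclustered members (blue) and clustered members (orange) in excitatory and inhibitory neurons. Genes within 0.05 of 0 have no row. Cdh12, at 1140 kb, lies at 0.40 in excitatory neurons, and Cdh13, at 1041 kb, at -0.26.

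Genes whose products work with cadherins were described from 3 lists, against the 52.3% of all genes above 0 in excitatory and 50.6% in inhibitory neurons. Of 11 catenins and anchors, 5 were listed in excitatory neurons, 2 of them above 0 and 0 past the size rule, against 10.1% of all genes higher and 8.75% lower by it. Ctnna3, an alpha-catenin, was at 0.16, with 63.9% of GWI and 58.2% of Control nuclei, and Ctnna1 at 0.13. Arvcf, a p120-family catenin, was at -0.20 and its relative Pkp4 at -0.19. In inhibitory neurons 2 of 6 were above 0, and by the size rule 2 were higher and 1 lower, against 14.9% and 10.8% of all genes. The higher ones were again Ctnna1 at 0.42 and Ctnna3 at 0.36, while vinculin (Vcl) was at -0.30 and Pkp4 at -0.18. The 2 alpha-catenin genes listed were thus above 0 in both tables, and the other members of the list were below 0.

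Of 18 other members of the cadherin superfamily, 6 were listed in excitatory neurons, 2 of them above 0, with 2 past the size rule, both lower (background 8.75%). These were Dchs2, at -0.36 with 19.4% of GWI and 24% of Control nuclei, and Celsr3, at -0.26. Fat4 and Fat1 were both at 0.07. In inhibitory neurons 3 of 7 were lower by at least 0.25 (background 10.8%) and 0 higher (background 14.9%), with Celsr3 at -0.34 and Fat3 at -0.29. The third was Dchs2, at -0.28, named after its value was seen. Celsr2 was the highest, at 0.22, and Fat4 was at 0.06. Of 21 regulators and effectors of protocadherins, 2 of 10 in excitatory and 3 of 12 in inhibitory neurons were lower by at least 0.25, against 8.75% and 10.8% of all genes, and 0 were higher. The lowest were the kinase gene Ptk2b, at -0.29 and -0.34, and the DNA methyltransferase gene Dnmt3a, at -0.27 and -0.30. The third in inhibitory neurons was the kinase gene Fyn, at -0.28, named after its value was seen. The highest were Wasf1 (0.115) and Adam10 (0.11) in excitatory neurons, and Smchd1 (0.13) and Nipbl (0.10) in inhibitory neurons.

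Of that list, Dnmt3a, Cyfip2 and Adam10 were listed in all 7 tables other than endothelial cells and pericytes. Dnmt3a was below 0 in each, from -0.44 in OPCs to -0.15 in oligodendrocytes. Cyfip2, a subunit of the WAVE complex, was also below 0 in each, from -0.58 in microglia to -0.06 in excitatory neurons. In pericytes Cyfip2 was at 1.39, with 16.7% of GWI and 9.5% of Control nuclei and a row through GWI alone. Adam10, the protease that sheds N-cadherin and several protocadherins, was above 0 in each, from 0.05 in inhibitory neurons to 0.22 in the Other table. It was detected in 59.2% of GWI and 53.1% of Control excitatory nuclei. In endothelial cells Adam10 was at -0.20.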

How the data were processed

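Single nuclei were profiled with 10x Genomics 3′ v3.1 chemistry, and reads were processed with Cell Ranger on GRCm38 (mm10), per the submitters' processing notes and the labels' protocols; no version of these was stated there. The authors deposited 1 table per cell type with a log2 fold change and the fraction of nuclei with the gene in each library. The deposited fractions were multiplied by 100 to give percentages. The authors also deposited p-values and adjusted p-values for each gene, computed over nuclei; these treat nuclei as replicates and were not used. The comparison label of the tables names GWI first, and the first fraction was taken as GWI on that ground. Each library pools 3 mice, so no test, error or interval was computed. The smallest listed values show a detection minimum of 10% and a log2 minimum of 0.05.

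Values were read with Python 3.11.15 and pandas 2.3.3. The counting step alone was checked, on 20 planted values per table whose counts were set beforehand. Gene positions came from GENCODE M21, which matched 10312 symbols (97.3%), and promoter windows from RefSeq. Named with values were members in at least 4 tables, all clustered members, and those past 0.5 in 7 tables or 1.0 in endothelial cells or pericytes; the remaining members were added so that each is accounted for. Members, gene lists and rules were chosen with earlier results of these data known. Alternatives were other size rules (0.5 and 1.0), centring on the table median, a detection minimum of 25%, the mean, subtraction of the gene's median in other tables, and the ratio of detection shares.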

Additional observations from a re-analysis of the deposited data

Results flagged for a closer look

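In the authors' deposited tables, Cdh6 had a log2 fold change of 0.3966 in excitatory neurons and -0.2631 in OPCs, opposite directions under the same comparison. Cdh7 was at 0.5975 in the Other table and -0.8484 in OPCs, where it was detected in 7.0% of GWI and 10.9% of Control nuclei and so had a row only through the library where it was higher. Cdh8 was at 0.2769 in the Other table and -0.4393 in microglia. With 1 library per group, none of these 3 differences between cell types was tested.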

How the results depend on the processing

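The numbers of unclustered members past the size rule were 5, 2, 10, 5, 7, 2, 2, 10 and 11 in excitatory neurons, inhibitory neurons, Other, astrocytes, OPCs, oligodendrocytes, microglia, endothelial cells and pericytes. In the same order they were 0, 0, 2, 0, 2, 0, 0, 4 and 7 at a log2 fold change of 0.5, and 0, 0, 0, 0, 0, 0, 0, 1 and 4 at 1.0, by the construction of a larger limit. Centred on the table median, the number in oligodendrocytes was 1 (Cdh2, higher, while both lower members fell short), and the other 8 stayed within 1.5 times. With no replicate spread, a median was taken as moved at a shift of 0.1, a choice of this work. Less the gene's median in other tables, the median of unclustered members was 0.0525 in excitatory neurons and -0.3365 in microglia. With members detected in at least 25% of nuclei it was 0.0510 in OPCs and 0.0993 in oligodendrocytes (against -0.1026). By the same minimum it was -0.1102 in microglia, from Pcdh7 alone, and 0.4263 in pericytes, from Cdh2, Pcdh7, Pcdh9 and Pcdh18. The mean was -0.0079 in astrocytes (against a median of 0.1003), -0.0608 in endothelial cells and -0.2586 in pericytes, and the centred median was 0.0445 in pericytes. For clustered members of the Other table the median was 0.2529 with the detection minimum, from Pcdhb14 alone, and the mean was -0.1067. By the ratio of detection shares, Cdh6 in OPCs was at 0.0191, Pcdh9 in pericytes at -0.0519 and Cdh18 in pericytes at 0.1709, each of opposite sign to a fold change past the size rule. In all 14 of 145 values had the opposite sign, the other 11 with smaller fold changes. Beside the 3 named, 28 values moved and 114 did not by the tolerance used. The cause of these shifts was not tested. No paired analysis was possible because each group has 1 library. A minimum of 25000 reads per nucleus is stated for both libraries, and the depth reached in each cell type is unknown. The precision of single values was not measured. Listed clustered members were detected in at most 27.2% of nuclei of a library. Values of all genes spread most in endothelial cells and pericytes, with standard deviations of 0.80 and 0.96. Values of sparsely detected members and of both vascular tables are therefore to be read with caution.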
